A study of Homo sapiens with 8 samples.

Results

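The transcriptome of HL60 cells given VC was compared with that of HL60 cells given PBS. HL60 is an established human acute promyelocytic leukaemia line, VC is vitamin C by the title of the series, and PBS (phosphate-buffered saline) is the drug-free vehicle. The comparison rests on 4 of the 8 libraries in the series, 2 with PBS and 2 with VC, all collected after 72 h of treatment in RPMI 1640 medium with serum. The other 4 libraries, 2 with DZNep (an S-adenosylhomocysteine hydrolase inhibitor that depletes EZH2) and 2 with VC and DZNep, were used to estimate the spread between libraries and to show the same VC contrast in cells that also received DZNep. The columns were chosen by name, not by any measured value. The doses are not given in the sources used here. Nothing in the labels says whether replicate libraries were grown as separate cultures, so every p value measures the spread between these libraries, which may be technical.

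Vitamin C (ascorbate) donates electrons. Inside cells it keeps the iron of the 2-oxoglutarate-dependent dioxygenases in its reduced form, and these enzymes include the TET enzymes that oxidise methylcytosine, the Jumonji histone demethylases and the prolyl hydroxylases that act on collagen and on the hypoxia factor HIF. Ascorbate also reduces ferric iron, and at high concentration in culture medium it can generate hydrogen peroxide. Its effects in cells are therefore looked for among dioxygenases and their targets, iron genes and the antioxidant genes driven by the transcription factor NRF2.

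Of the listed markers of promyelocytes and HL60 cells, 10 were measured. MPO, the myeloperoxidase of primary granules, had deposited values of 3652 and 2726 with PBS and of 3114 and 3652 with VC. The myeloid transcription factor SPI1 stood at 652 and 670 with PBS and at 686 and 707 with VC, and the surface antigen CD33 at 274 and 282 against 263 and 292. In both genes the groups differed by little or overlapped. Over these 4 libraries ANPEP ranged from 1750 to 2170, MYC from 680 to 815, MYB from 578 to 718 and CEBPE from 279 to 303. The other 3 markers were low. CTSG had 30 and 27 with PBS and 42 and 43 with VC, MS4A3 20 and 19 against 22 and 14, and LYZ 26 and 33 against 48 and 54. Markers of other lineages were few and mostly low. The lymphoid genes CD79A, CD22 and CD2 ranged from 4 to 14 in these 4 libraries, in a table whose lowest value is 2. Of the erythroid and megakaryocyte markers EPOR ranged from 13 to 28 and ITGA2B from 374 to 450. ITGA2B thus stood above CD33, and EPOR in the range of the lowest promyelocyte markers. The remaining genes of those lists, haemoglobins and the T-cell receptor complex among them, were not analysed here.

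The effect of vitamin C alone was small. None of 9513 genes tested (0.0%) passed limma's moderated test at a Benjamini-Hochberg adjusted p of 0.05. At an unadjusted limma p under 0.05 there were 462 genes (4.86%), 249 higher with VC (2.62%) and 213 lower (2.24%), where 476 would be counted if no gene differed. On the log2 scale the median size of the difference was 0.123, which is 1.089-fold, and the median standard error (SE) was 0.168. For 7610 of the 9513 genes the groups differed by less than 1.2-fold. A difference of at least 1.5-fold was found for 271 genes and of at least 2-fold for 26, of which 12 were higher and 14 lower. Only 2 of those 26 had a mean value of at least 50 over the 4 libraries, and both, HNRNPA1L2 and HNRNPA1P48, are near-identical copies of HNRNPA1 between which reads can be split. Depth per library is not known, because each library was scaled to the same set of values with a total of 1988507.

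The 2 VC libraries lay closer together than any PBS and VC library did, and the 2 PBS libraries lay farther apart. The standard deviation across genes of the log2 difference was 0.36 between the 2 PBS libraries and 0.291 between the 2 VC libraries. Between a PBS and a VC library it ranged from 0.32 to 0.338. GC content moved with this gap. In the decile of genes with the lowest GC content (30.9% to 38.2%) the median deviation from the gene's mean was -0.074 in PBS library 1 and 0.087 in PBS library 2, and in the decile with the highest (61.2% to 73.5%) it was 0.074 and -0.073. The VC libraries showed the same kind of slope at a smaller size, from 0.027 to -0.019 and from -0.018 to 0.032. These opposite slopes cancelled in the group means, and the median log2 fold change per GC decile stayed between -0.007 and 0.019. Removing the GC trend from each library lowered the PBS gap to 0.345 and left the VC gap at 0.29.

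TFRC carried the clearest single difference. It encodes the transferrin receptor, which brings iron into the cell, and lies at chr3:196027183-196082189 on the minus strand (GRCh38, ENSG00000072274). Its values were 463 and 432 with PBS and 718 and 844 with VC, so that the lower VC library stood well above the higher PBS library. The difference was 0.80 ± 0.0996 (log2 fold change ± SE), with a limma adjusted p of 0.0839 and the smallest unadjusted p of all genes, 8.82e-06. The adjusted p was 0.0152 after removal of the GC trend and 0.0484 after a median-of-ratios rescaling, and over all 16 alternatives it ranged from 0.0152 to 0.877. In the libraries with DZNep, whose levels do not enter this difference, TFRC stood at 828 and 918 without VC and at 1377 and 1443 with it, a difference of 0.69 with a limma adjusted p of 0.0149.

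TFRC RNA is known to be stabilised when iron is scarce, through iron responsive elements (IREs), short stem-loops with a CAGTG loop to which the iron regulatory proteins ACO1 and IREB2 bind. Ferritin RNAs carry an IRE near the other end, where binding blocks translation. GENCODE 29 transcripts were searched for a C, 5 bases, CAGTGN and 5 bases that pair with the first 5 (17 bases in all, G·T pairs allowed). TFRC held 4 such sites in its 3′ UTR, at chr3:196050985-196051001, chr3:196050581-196050597, chr3:196050516-196050532 and chr3:196050469-196050485, all on the minus strand. FTH1 held 1 in its 5′ UTR at chr11:61967580-61967596 on the minus strand, and FTL 1 in its 5′ UTR at chr19:48965341-48965357 on the plus strand. The sites are shown because these 3 genes carry the iron results that follow, with the loop in capitals.
TFRC site 1: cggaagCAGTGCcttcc
TFRC site 2: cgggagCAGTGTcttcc
TFRC site 3: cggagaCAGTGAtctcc
TFRC site 4: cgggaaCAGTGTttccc
FTH1 site: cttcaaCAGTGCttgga
FTL site: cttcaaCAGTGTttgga
The 2 ferritin sites differ from each other in the last loop base and otherwise share their letters. Of 9504 genes scanned, 106 (1.12%) held such a stem-loop in a UTR. Their median log2 fold change with VC was 0.023 and 58 of them lay above 0. The set is a match of letters that pools 5′ and 3′ UTR sites. Several genes, such as ATP5A1, CHFR and CRTAP, hold the same 17 letters. Its median therefore cannot tell whether IREs acted, which was not tested.

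Iron genes as a list did not move one way. Of 18 measured genes of iron uptake, storage and control, 10 lay above 0 and 8 below, against 50.7% of all genes above and 48.8% below, with a median of 0.047. Ferritin, which stores iron, was slightly higher. FTH1, its heavy chain, had values of 742 and 773 with PBS and of 829 and 884 with VC (0.18 ± 0.0906), and FTL, its light chain, 872 and 960 against 1014 and 1057 (0.18 ± 0.0785). For each chain both VC libraries stood above both PBS libraries, with a limma adjusted p of 0.954 for each. With DZNep the ferritin values were 742 and 643 against 1056 and 1032 for FTH1 (0.60, limma adjusted p = 0.0194) and 1172 in both libraries against 1444 in both for FTL (0.30, limma adjusted p = 0.124).

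The other iron transporters differed in direction. SLC25A37 (mitoferrin 1), which carries iron into mitochondria, had values of 506 and 564 with PBS and of 450 and 390 with VC (-0.35 ± 0.119). SLC39A14 (ZIP14), an importer of iron not bound to transferrin, had values of 282 and 280 against 237 and 226 (-0.28 ± 0.108). In both genes the VC libraries lay below the PBS libraries, with a limma adjusted p of 0.954 each. PCBP2, an iron chaperone and RNA-binding protein, stood at 3114 in both PBS libraries and at 2726 and 2460 with VC (-0.27). The sensor ACO1 was low, at 28 and 23 against 22 and 13 (-0.56 ± 0.322), with VC library 2 the lowest of the 4. STEAP3, a ferric reductase of endosomes, had 84 and 56 against 86 and 84 (0.30), and SLC25A28 (mitoferrin 2) 58 and 64 against 102 and 62 (0.38), where the groups met or overlapped.

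**Figure D1:**
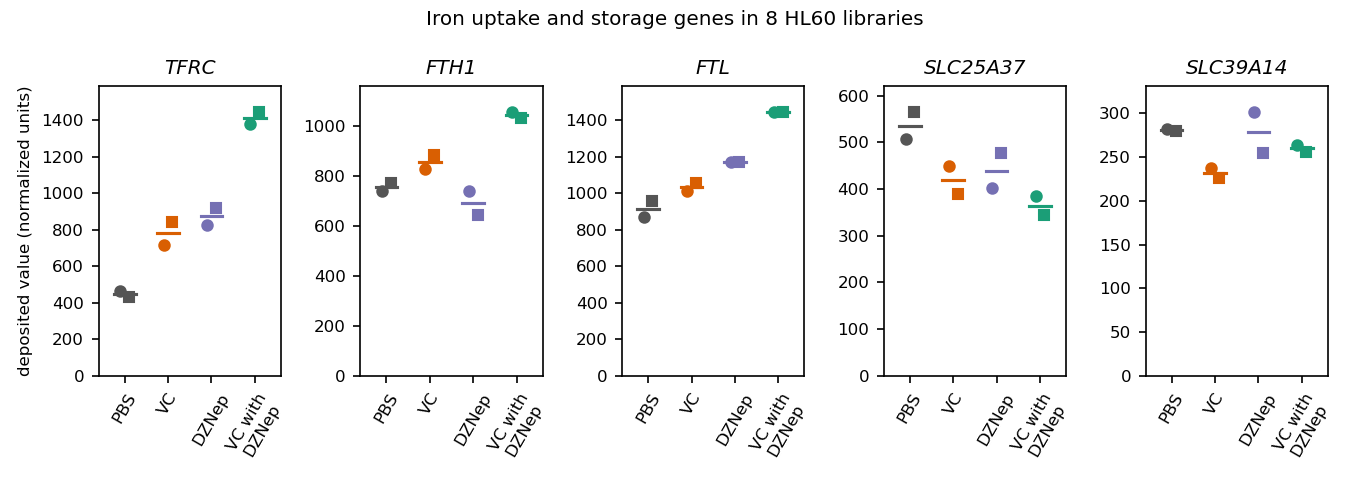
Deposited values (normalized units, linear axis from 0) of 5 iron genes in the 8 libraries. Circles are library 1 and squares library 2 of each group, and the bar is their mean. TFRC stands at 463 and 432 with PBS and 718 and 844 with VC, and higher again in the pair with VC and DZNep, whereas the 2 solute carriers lie lower with VC than with PBS.

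The other leading genes were picked as those with the smallest limma p in each direction, among genes with both VC libraries beyond both PBS libraries whose higher group averaged 50 or more. As many as 1506 genes (15.8%) had both VC libraries above both PBS libraries and 1448 (15.2%) had both below, so this condition alone says little. After TFRC came CFL1 (cofilin 1, an actin-severing protein, chr11:65823022-65862026, minus strand), with 1903 and 1826 against 2724 and 3112 (0.64 ± 0.107, limma adjusted p = 0.361). CHI3L1 (a secreted chitinase-like glycoprotein of myeloid cells, chr1:203178931-203186749, minus strand) had 110 and 102 against 162 and 187 (0.71 ± 0.119, limma adjusted p = 0.361). Both pairs of VC values stood well clear of the PBS values. CFL1 lies where the scale is coarse: only 35 distinct values exist above 1800, and 114 genes stood above CFL1 in PBS library 1 against 64 in VC library 2.

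LYZ, the lysozyme of granulocytes and monocytes, had 26 and 33 with PBS and 48 and 54 with VC (0.78 ± 0.172). UBTF, which directs RNA polymerase I to ribosomal DNA, had 450 and 538 against 679 and 669 (0.45 ± 0.0986), and PHACTR1, a regulator of actin and of protein phosphatase 1, had 64 and 54 against 98 and 93 (0.69 ± 0.147). PPM1B, a protein phosphatase, stood at 66 and 68 against 98 and 100, and OGDH, the 2-oxoglutarate dehydrogenase of the TCA cycle, at 122 and 93 against 149 and 172. All of these, with PGD and BEST1 treated below, had a limma adjusted p of 0.954.

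Among lower genes the smallest p belonged to CBX5 (heterochromatin protein 1 alpha, which binds methylated histone H3; chr12:54230940-54280133, minus strand), with 943 and 872 with PBS and 670 and 643 with VC (-0.47 ± 0.0924, limma adjusted p = 0.954). SEPT6, a filament-forming septin, had 432 and 420 against 307 and 324 (-0.43), and DDX3X, an RNA helicase used in translation initiation, 1548 in both PBS libraries against 1324 and 1172 (-0.31). RETSAT, a retinol saturase, had 86 and 90 against 60 and 51 (-0.66). P2RX7, an ATP-gated channel of myeloid cells, had 161 and 172 against 116 and 119 (-0.50), and TSPOAP1, which binds the mitochondrial translocator protein TSPO, 194 and 138 against 100 in both VC libraries (-0.70). The list was completed by SPCS2 (a signal peptidase subunit, -0.70), POLG2 (the accessory subunit of the mitochondrial DNA polymerase, -0.73) and CTDP1 (a phosphatase of RNA polymerase II, -0.52). HNRNPA1L2 had the largest value, -1.53 ± 0.35 (224 and 330 against 73 and 119), and it is the HNRNPA1 copy named above. All 10 had a limma adjusted p of 0.954.

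**Figure D2:**
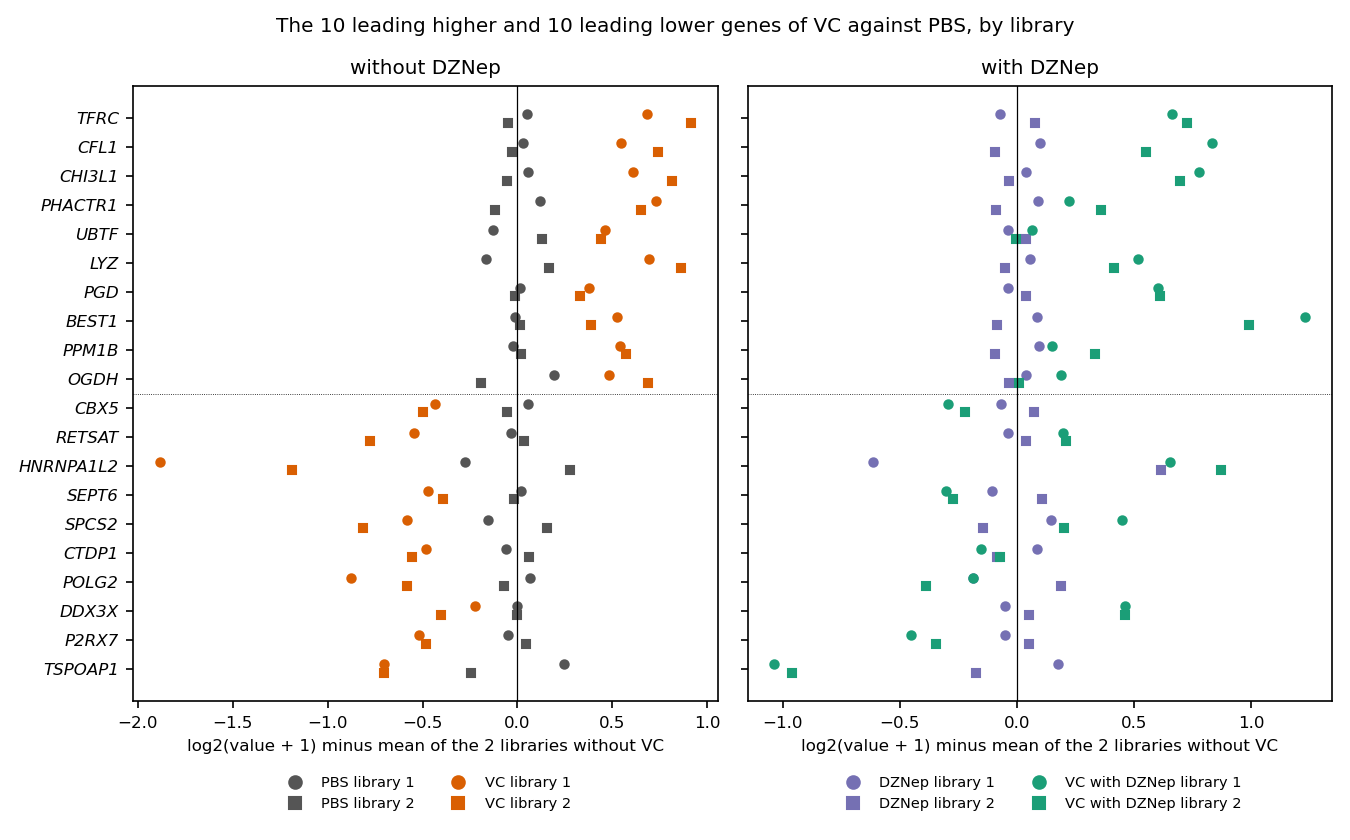
Log2(value + 1) of the 10 leading higher genes (above the dotted line) and 10 leading lower genes, by library, relative to the mean of the 2 libraries without VC. The left panel holds the PBS and VC libraries, whose difference chose the genes, and the right panel the DZNep libraries, which entered the choice only through the SE. TFRC, CFL1, CHI3L1, PGD and BEST1 lie to the right of 0 in both panels, whereas RETSAT, HNRNPA1L2, SPCS2 and DDX3X change side.

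The libraries with DZNep gave the VC contrast a second time, from 4 libraries that share none with the first. All 10 leading higher genes had a log2 fold change above 0 there, where 50.2% of all genes did, and 8 had both VC libraries above both others (20.6% of all genes). A limma adjusted p under 0.05 was reached in the higher direction by 5 of the 10 (TFRC, CFL1, CHI3L1, PGD and BEST1), against 25 of all genes (0.263%). Neither the 8 genes without overlap nor the 5 called are counts independent of the choice of genes. The fit takes 1 SE per gene from all 8 libraries for both contrasts, and genes with a small SE were favoured. The same holds for the leading lower genes below. CFL1 had 3112 and 2724 with DZNep against 5184 and 4264 with VC and DZNep (0.69, limma adjusted p = 0.0194). CHI3L1 had 162 and 154 against 271 and 256 (0.73, limma adjusted p = 0.0231), a difference as large as the one without DZNep.

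The leading lower genes were less regular on DZNep. Of the 10, 6 had a log2 fold change below 0 (49.5% of all genes), 4 had both VC libraries below (20.4%), and 1, TSPOAP1, passed in that direction (39 genes, 0.41%), with 87 and 68 against 37 and 39 (limma adjusted p = 0.0431). CBX5 had 351 and 387 against 300 and 316 (-0.26, limma adjusted p = 0.258). DDX3X passed in the other direction, at 1281 and 1377 against 1826 in both libraries (0.46, limma adjusted p = 0.0386). The difference between the 2 contrasts was itself tested for these 20 genes as an interaction, and the lowest limma adjusted p was 0.108. Across all 9513 genes the 2 contrasts had a Pearson correlation of 0.127 and a Spearman correlation of 0.12, which describes genes within the same 8 libraries and not replicates.

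BEST1, an anion channel gene of the retinal pigment epithelium, had 370 and 377 with PBS and 538 and 488 with VC (0.46), and 442 and 392 against 978 and 828 on DZNep (1.11, limma adjusted p = 0.00192). BEST1 (chr11:61949821-61965515, plus strand) overlaps FTH1 (chr11:61959718-61967660) on the opposite strand. Whether reads were counted by strand is not given in the sources used here, so reads of the 2 genes may not have been told apart, and the BEST1 and FTH1 values may not be independent. Overlaps with another annotated gene also touch CFL1, PHACTR1, RETSAT and PPM1B, and some genes treated below. Among those, ALDOA, SDHD and TXNRD1 overlap a gene on their own strand, which counting by strand would not tell apart.

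Gene groups were described by the median log2 fold change of their measured members, and by each library's median deviation from the gene's mean over the 4 libraries. The difference between the VC and PBS means of the library medians, here called the shift, can be set against the gap between the 2 libraries of each group. Over 66 groups with at least 5 genes tested, the lists of cell type markers left aside, the median size of the shift was 0.036, the median gap between the PBS libraries 0.043 and that between the VC libraries 0.024. Both VC medians lay above both PBS medians in 19 groups (28.8%) and below in 8 (12.1%), and in 39 the groups overlapped. Single genes were separated upward in 15.8% of cases and downward in 15.2%. The shift was larger than both gaps in 19 groups, 14 upward and 5 downward. All 9513 genes taken as 1 group also met this condition, with a shift of 0.003 against gaps of 0.002 and 0.001, so meeting it says little alone. After removal of the GC trend 17 groups met this condition, and 11 met it both ways. The group median was under 0.05 in size for 48 groups and under 0.1 for 63. The 3 of these groups beyond 0.1 were the NRF2 antioxidant and NADPH genes (0.177), the immediate early genes (-0.152) and the targets of the transcription factor ATF4 (-0.106). Among the marker lists left aside, the 5 measured markers of eosinophils, basophils and mast cells had a median of -0.529 and the 10 of promyelocytes and HL60 cells -0.05.

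**Figure D3:**
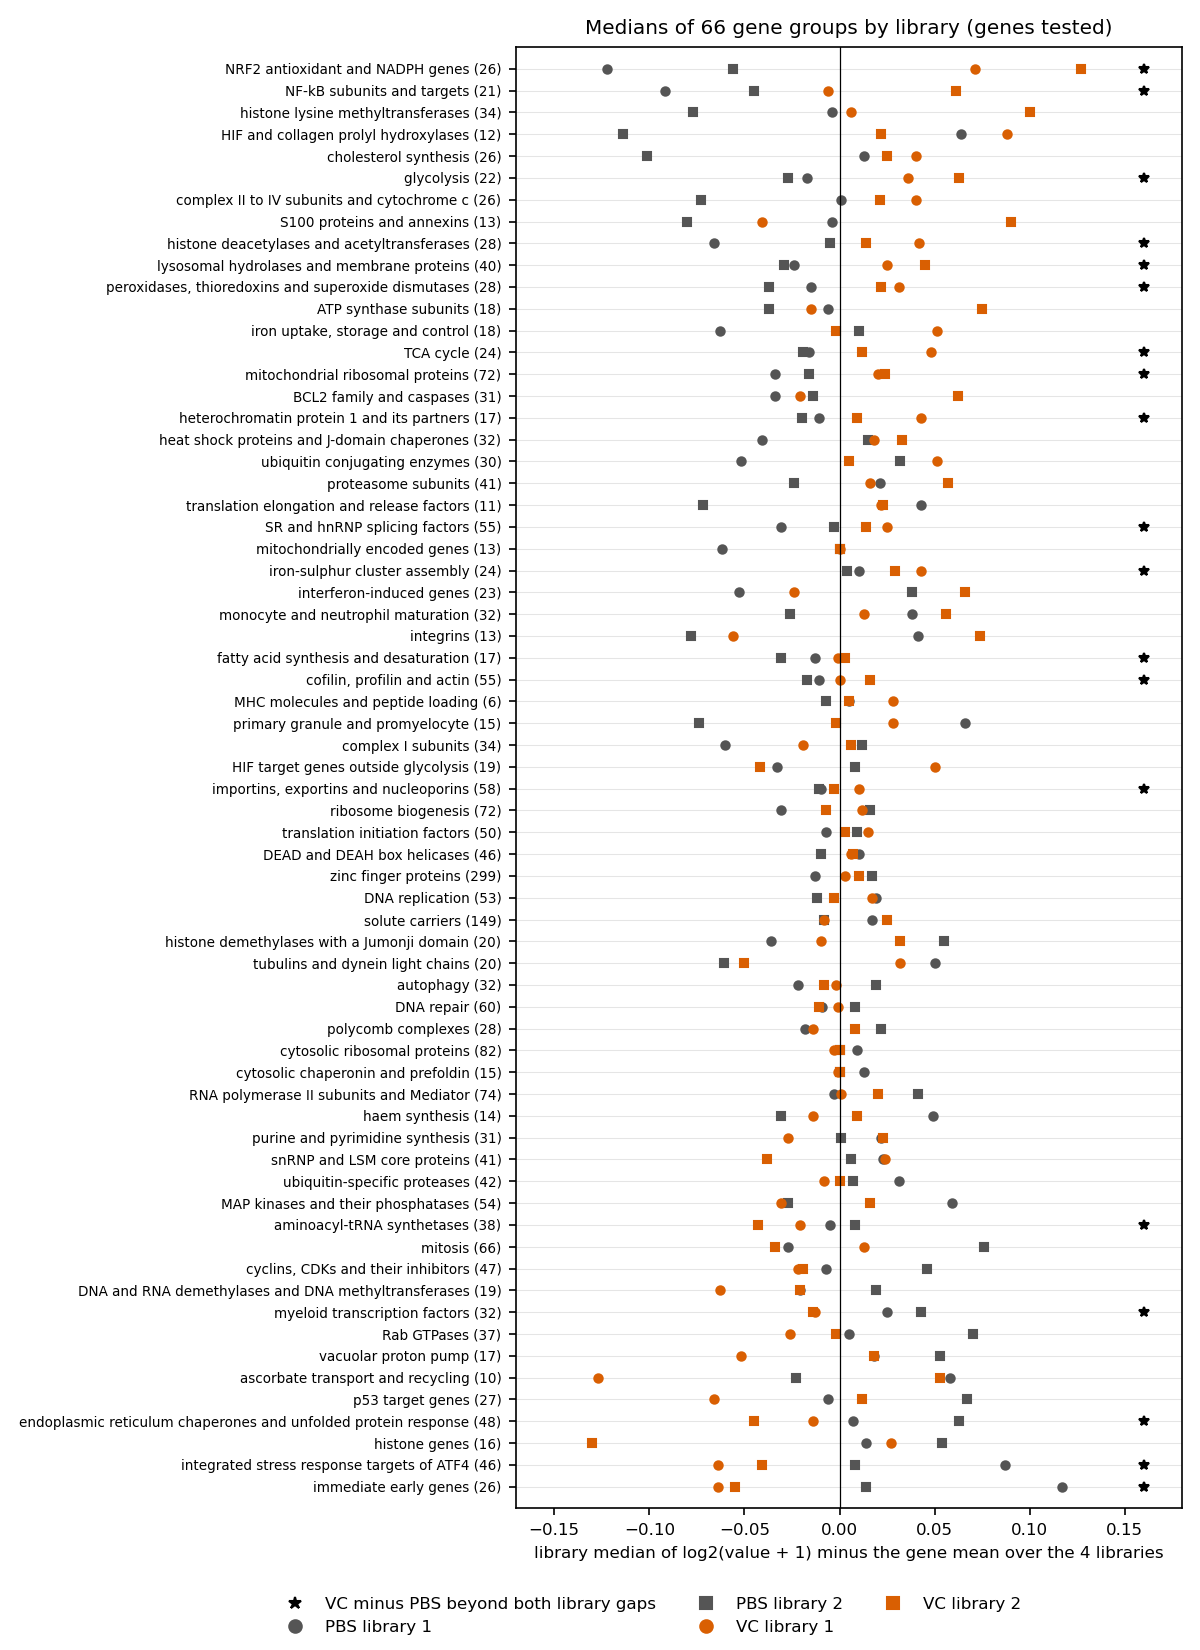
Each library's median over the members of 66 gene groups, as log2(value + 1) minus the gene's mean over the 4 libraries, sorted by the shift from PBS to VC (number of genes tested in parentheses). A star marks the 19 groups whose shift is larger than the gap within both pairs of libraries; for the NRF2 group the PBS medians are -0.122 and -0.056 and the VC medians 0.071 and 0.127.

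The NRF2 list held the widest upward shift of the 66 groups. NRF2 binds antioxidant response elements and drives genes that make glutathione, reduce thioredoxin, regenerate NADPH and store iron. Of 26 measured members, 24 (92.3%) had a log2 fold change above 0, against 50.7% of all genes. Both VC libraries stood above both PBS libraries for 15 members and below for 0, against 15.8% and 15.2% of all genes. The library medians were -0.122 and -0.056 with PBS and 0.071 and 0.127 with VC, so the shift of 0.188 was larger than the gap of 0.066 within PBS and of 0.056 within VC. An unadjusted limma p under 0.05 was found for 6 members in the higher direction, PGD, TKT, GCLC, MGST1 and FTL among them. The share over all genes was 2.62%, and no member passed after adjustment. The median of 0.177 stayed between 0.138 and 0.19 in every alternative and was 0.172 after removal of the GC trend. Without the 2 ferritin genes, which also stand in the iron list, the median of the remaining 24 was 0.169 and 22 lay above 0.

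The antioxidant response element core TGACNNNGC (either strand) was searched in RefSeq promoters (GRCh38.p14, 250 bases before to 50 after the start). It was found in 6 of 19 NRF2 list genes with a promoter in that table (31.6%), against 1223 of 7881 tested genes (15.5%). The windows around each core are shown 5′ to 3′ on the strand on which it reads TGACNNNGC, with the core in capitals, because these are the genes of the list that carry it. They lie at chr1:93909446-93909474 (plus strand) for GCLM, chr6:83431170-83431198 (minus strand) and chr6:83431022-83431050 (plus strand) for ME1, chr11:67583736-67583764 (plus strand) for GSTP1, chr13:95301582-95301610 (plus strand) for ABCC4, chr1:10398853-10398881 (minus strand) for PGD, and chr12:104215670-104215698 (plus strand) and chr12:104215761-104215789 (minus strand) for TXNRD1.
GCLM: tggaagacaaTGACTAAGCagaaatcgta
ME1 distal: tctcctgccaTGACTCAGCgcttctcgca
ME1 proximal: gctgctggggTGACGGTGCtgactgcagc
GSTP1: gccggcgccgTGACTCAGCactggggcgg
ABCC4: gaccgacgggTGACGCGGCgggaggagac
PGD: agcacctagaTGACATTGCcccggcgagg
TXNRD1 distal: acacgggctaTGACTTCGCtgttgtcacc
TXNRD1 proximal: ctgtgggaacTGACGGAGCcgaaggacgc
ME1 distal and GSTP1 share the core letters TGACTCAGC. The log2 fold changes of the whole list ran from -0.16 to 0.58, and the 6 genes lay within it. PGD was at 0.35, GCLM at 0.28, ME1 at 0.22, TXNRD1 at 0.15, ABCC4 at 0.06 and GSTP1 at 0.05 on the log2 scale. A match of letters is a description and does not show binding.

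The pentose phosphate pathway regenerates NADPH and supplies pentoses, and PGD was the most regular of its 3 enzymes named here. PGD, a dehydrogenase of the oxidative branch, had 498 and 490 with PBS and 642 and 622 with VC (0.35 ± 0.0825). Its replicate values lay close together and the groups well apart. TKT, the transketolase of the non-oxidative branch, had 2726 and 2170 against 3114 in both VC libraries (0.36 ± 0.1), and TALDO1, the transaldolase, 427 and 390 against 442 in both (0.11 ± 0.0898). Both VC libraries lay above both PBS libraries for these 3 genes. The PBS libraries of TKT differed by 0.329 on the log2 scale. With each library left out in turn its log2 fold change ranged from 0.19 to 0.52. TKT also lies in the coarse range of the scale. For TALDO1 the 2 PBS libraries were farther apart than the group means. On DZNep, PGD had 410 and 432 against 638 and 642 (0.60, limma adjusted p = 0.0112).

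Of the glutathione genes, GCLC, the catalytic subunit of the rate-limiting glutamate-cysteine ligase, had 100 and 116 with PBS and 140 and 142 with VC (0.39 ± 0.117). Its regulatory subunit GCLM had 68 and 58 against 86 and 68 (0.28 ± 0.169), where the groups met at 68. GSR, which reduces oxidised glutathione, had 200 in both PBS libraries and 212 and 246 with VC (0.19). MGST1, a membrane glutathione transferase, had 271 and 310 against 345 and 370 (0.30 ± 0.102), whereas GSS, the second enzyme of glutathione synthesis, was one of the 2 members below 0. SLC7A11, the cystine importer that feeds the pathway, had 324 and 390 against 380 and 340 (0.02), fully overlapping; on DZNep it had 186 and 203 against 105 and 124 (-0.76, limma adjusted p = 0.0316), opposite to the list.

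Of the thioredoxin branch, TXNRD1, the cytosolic thioredoxin reductase, had 772 and 814 with PBS and 918 and 844 with VC (0.15 ± 0.118), and on DZNep 884 and 707 against 1172 and 1376 (0.68, limma adjusted p = 0.0316). Thioredoxin itself (TXN) was the other member below 0. ME1, the malic enzyme that also makes NADPH, had 122 and 125 against 140 and 148 (0.22), and UGDH, which makes UDP-glucuronate, 32 and 34 against 45 and 44 (0.42). SQSTM1 (p62), an autophagy receptor that itself regulates NRF2, had 310 and 342 against 355 and 444 (0.29), and on DZNep 249 and 300 against 472 and 549 (0.89, limma adjusted p = 0.0194). NQO1, a quinone reductase often used as an NRF2 readout, was measured at low values of 12 and 30 with PBS and 30 and 28 with VC (0.58 ± 0.363), so the groups overlapped, and the log2 fold change was -0.05 without PBS library 1. On DZNep, NQO1 had 14 and 18 against 52 and 64 (1.80, limma adjusted p = 0.0567). The list as a whole had 19 of 26 members above 0 on DZNep, a median of 0.201, 4 members called higher (TXNRD1, PGD, FTH1 and SQSTM1) and 1 lower (SLC7A11). Among all genes on DZNep, 50.2% lay above 0, 0.263% were called higher and 0.41% lower. HMOX1, another common NRF2 readout, was not analysed here.

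**Figure D4:**
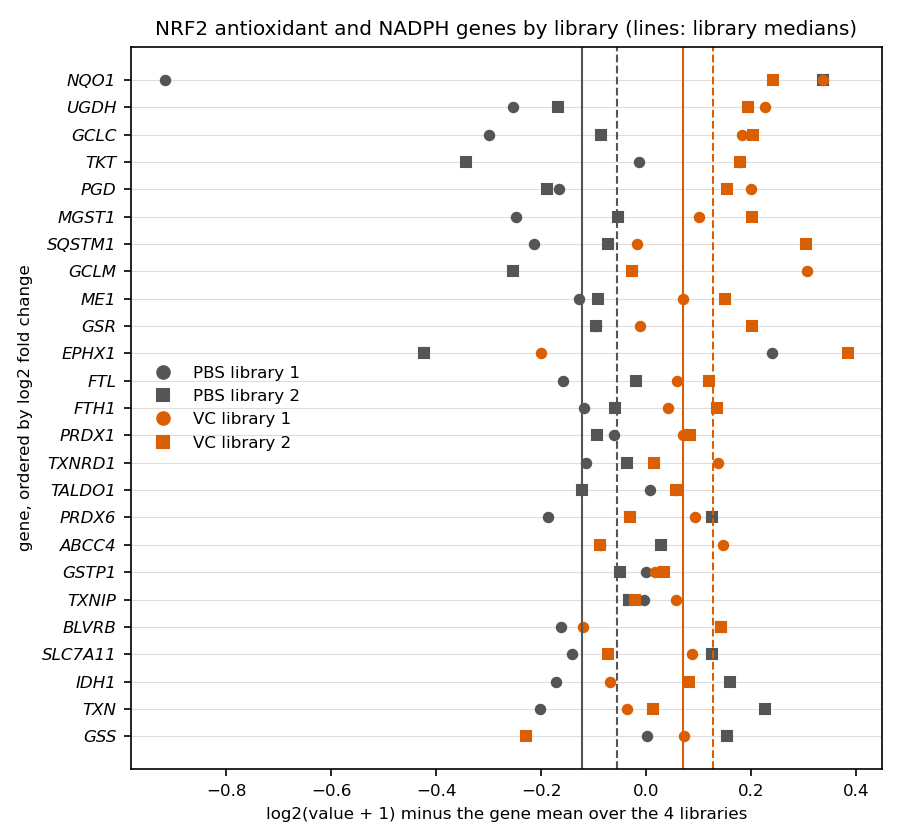
Log2(value + 1) of 25 of the 26 measured NRF2 list genes in each PBS and VC library, relative to the gene's mean over the 4, ordered by log2 fold change. Vertical lines are the library medians over the 26 genes (-0.122 and -0.056 with PBS, 0.071 and 0.127 with VC); both VC points lie right of both PBS points for 14 of the genes drawn.

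Several groups of central carbon metabolism had medians slightly above 0. Glycolysis genes had a median of 0.093, with 13 of 22 above 0 and 6 below, and library medians of -0.017 and -0.027 with PBS against 0.036 and 0.063 with VC. The 7 genes from aldolase to pyruvate kinase had a median of 0.262, with 6 above 0; this subset was chosen after its values were seen. PKM, the pyruvate kinase, stood at 3652 in both PBS libraries and at 4267 and 4797 with VC (0.31 ± 0.0806), and ENO1, an enolase, at 2168 and 2458 against 2724 and 3112 (0.33 ± 0.0988). ALDOA, an aldolase, had 112 and 110 against 135 and 152 (0.37 ± 0.14), and the lactate transporter SLC16A1 278 and 342 against 345 and 380 (0.23). In these 4 genes both VC libraries lay above both PBS libraries, with a limma adjusted p of 0.954 each. GAPDH, LDHA and LDHB held identical values in all 4 libraries, GAPDH at 2022, which the coarse steps at the top of the scale allow and which does not show that their RNA was equal. PKM and ENO1 lie in the same range of the scale.

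Genes of the TCA cycle had a median of 0.059, with 16 of 24 above 0, and of 0.014 without PBS library 1 and 0.021 without PBS library 2. Subunits of respiratory complexes II to IV had a median of 0.096, with 19 of 26 above 0, although their shift of 0.067 was smaller than the PBS gap of 0.074 and their median was 0.048 without PBS library 2. UQCRH, a subunit of complex III, had 377 and 374 with PBS and 420 and 476 with VC (0.25 ± 0.108), and its partner UQCRQ had 57 and 39 against 68 and 66 (0.50 ± 0.2). SDHD, a membrane anchor of complex II, had 56 and 66 against 86 and 71 (0.36). Of 34 complex I subunits 23 lay above 0, but their library medians overlapped, from -0.06 to 0.012 with PBS and -0.019 to 0.006 with VC. The 13 genes encoded in mitochondrial DNA had a median of 0.0. On DZNep the medians were 0.143 for glycolysis, -0.053 for the TCA cycle and 0.015 for complexes II to IV, so the TCA cycle genes had the opposite sign there.

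The ATF4 list was shifted downward. ATF4 is the transcription factor of the integrated stress response, and it drives genes of amino acid synthesis and import and aminoacyl-tRNA synthetases. Of 46 measured members, 36 lay below 0 and 10 above, and 16 had both VC libraries below both PBS libraries against 3 above. Among all genes 48.8% lay below 0, 15.2% had both VC libraries below and 15.8% had both above. The library medians were 0.087 and 0.008 with PBS and -0.064 and -0.041 with VC, giving a shift of -0.1 against gaps of 0.08 and 0.023. The group median of -0.106 was -0.048 without PBS library 1 and -0.117 without PBS library 2. SLC1A5, the glutamine transporter ASCT2, had 1824 and 1747 with PBS and 1442 and 1278 with VC (-0.39 ± 0.11). VEGFA, the endothelial growth factor that ATF4 and HIF both induce, had 707 and 741 against 564 and 596 (-0.32 ± 0.102). In both genes the 2 groups were clearly apart.

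PSPH, the last enzyme of serine synthesis, had 68 and 88 with PBS and 54 and 44 with VC (-0.66 ± 0.242), and ASNS, the asparagine synthetase, 638 and 660 against 560 in both VC libraries (-0.21 ± 0.0965). The lowest limma adjusted p among the members was 0.954. The 12 tRNA synthetases in the list, of which 10 lay below 0, had a median of -0.115, and the other 34 genes, of which 26 lay below 0, had a median of -0.072, so both parts of the list lay below 0. On DZNep 45 of the 46 members lay below 0, with a median of -0.492 and 11 members called lower. Among all genes there, 49.5% lay below 0 and 0.41% were called lower. ASNS had 322 and 299 there against 154 and 172 (-0.93, limma adjusted p = 0.00258), and SLC1A5 had 538 and 652 against 440 and 392 (-0.51, limma adjusted p = 0.0698).

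The endoplasmic reticulum chaperones and the unfolded protein response followed in the same direction at a smaller size, with a median of -0.044. Of 48 genes, 29 lay below 0, against 48.8% of all genes. Both VC libraries lay below both PBS libraries for 16 of them, against 15.2% of all genes. HSPA5 (BiP), the main chaperone of that compartment, had 962 and 943 with PBS and 815 and 784 with VC (-0.25 ± 0.0752), and HYOU1, its nucleotide exchange partner, 462 and 489 against 398 and 395 (-0.26 ± 0.089). The replicate values of both genes lay close together. On DZNep the median of the group was -0.007, with HSPA5 at 1057 and 1056 against 1032 and 1074. The family of heat shock proteins and J-domain chaperones, taken by name and with HSPA5 among them, had a median of 0.038, with 17 of 32 above 0.

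Immediate early genes, which serum and growth factors induce within minutes, had a median of -0.152, the lowest of the 66 groups. Of 26 measured genes 21 lay below 0, against 48.8% of all genes. Both VC libraries lay below both PBS libraries for 9 and above for 1, against 15.2% and 15.8% of all genes. The library medians were 0.117 and 0.014 with PBS and -0.064 and -0.055 with VC. The median was -0.043 without PBS library 1 and -0.199 without PBS library 2, so the size of the shift depended on PBS library 1. FOS, a subunit of the transcription factor AP-1, had 76 and 88 with PBS and 61 and 38 with VC (-0.75 ± 0.321), and its partner JUN had 140 and 129 against 119 and 86 (-0.41 ± 0.186). CSRNP1, a nuclear protein induced by AXIN1, had 86 in both PBS libraries against 75 and 62 (-0.33). Both VC values lay below both PBS values in these 3 genes, and their unadjusted limma p ranged from 0.0403 to 0.101. On DZNep the group went the other way, with a median of 0.107 and 16 of 26 genes above 0, and FOS had 46 and 22 there against 61 and 50. The AP-1 motif TGANTCA (either strand) was found in 1 of the 20 immediate early genes with a RefSeq promoter (5.0%), against 327 of 7881 tested genes (4.15%).

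Of the myeloid transcription factors 21 of 32 lay below 0, with a median of -0.09. Without VC library 2 the median was -0.034, without VC library 1 -0.04 and without PBS library 2 -0.041, and after removal of the GC trend the library medians overlapped. GATA2, which keeps blood progenitors immature and also serves mast cells and basophils, had 576 and 456 with PBS and 348 and 362 with VC (-0.53 ± 0.162, limma adjusted p = 0.954), and ID2, an inhibitor of helix-loop-helix factors, 100 and 132 against 89 and 88 (-0.37). RARA, the retinoic acid receptor alpha, went the other way at 100 and 74 against 126 and 98 (0.37), with overlapping groups. On DZNep GATA2 had 637 and 844 against 942 and 728, which overlap. GATA2 is itself counted among the 5 measured markers of eosinophils, basophils and mast cells. Of these, 4 lay below 0, GATA2, CPA3 at 6 in both PBS libraries against 2 in both VC libraries, the lowest value in the table, CLC at 32 and 22 against 13 and 30, and IL1RL1 at 5 and 8 against 6 and 2, whereas RNASE2 had 36 and 20 against 31 and 38. The groups overlapped for CLC, IL1RL1 and RNASE2. The other listed markers of these cells were not analysed here, and the part of such cells in the GATA2 value was not tested. In bulk RNA, fewer cells of a type and less RNA per cell cannot be told apart.

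Maturation markers as a set did not shift. Of 32 monocyte and neutrophil maturation genes 16 lay above 0, with a median of 0.003, although the list holds CHI3L1 and FCGR2A, an Fc receptor, which had 74 and 86 with PBS and 104 and 110 with VC (0.42). ITGAM, the CD11b integrin used to score HL60 maturation, had 80 and 102 against 80 and 128 (0.16), with overlapping groups. On DZNep the list had a median of 0.319. The NF-kB subunits and targets had a median of 0.089 with 16 of 21 above 0 and library medians of -0.092 and -0.045 with PBS and -0.006 and 0.061 with VC, and a median of 0.041 without PBS library 1 and of 0.499 on DZNep. TNFAIP2, a target induced by tumour necrosis factor, had 256 and 237 with PBS and 316 and 289 with VC (0.29 ± 0.108). Lysosomal hydrolases and membrane proteins had a median of 0.059 with 27 of 40 above 0, led by LAMP1, the main lysosomal membrane glycoprotein, at 272 and 268 against 333 and 338 (0.31 ± 0.0879), and by ARSA, an arylsulfatase, at 49 and 39 against 75 and 60 (0.61). LAMP1 was 361 and 351 against 499 and 489 on DZNep (0.47, limma adjusted p = 0.0431).

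The enzymes that use ascorbate showed small differences at the RNA level. The groups of Jumonji histone demethylases (20 genes, median 0.028), HIF and collagen prolyl hydroxylases (12 genes, median 0.059) and DNA and RNA demethylases with the DNA methyltransferases (19 genes, median 0.013) all had overlapping library medians as deposited. After removal of the GC trend the demethylase and DNA methyltransferase group had library medians of 0.007 and 0.054 with PBS and -0.056 and -0.008 with VC, a shift of -0.062 against gaps of 0.047 and 0.048. TET2, the TET enzyme most often mutated in myeloid leukaemia, had 132 in both PBS libraries and 132 and 148 with VC (0.08 ± 0.141). TET3 had 610 and 442 against 476 in both VC libraries (-0.13 ± 0.231), and TET1, measured at low values, 21 and 20 against 13 and 14 (-0.57 ± 0.272). DNMT1, the maintenance DNA methyltransferase, had 1548 and 1324 against 1172 and 1215 (-0.26 ± 0.109), and the de novo enzyme DNMT3A had 62 and 66 against 86 and 88 (0.44 ± 0.145). Both VC libraries lay beyond both PBS libraries for TET1, DNMT1 and DNMT3A, in differing directions, with a limma adjusted p of 0.954 for each. DNMT3B, the other de novo enzyme, lay at -0.43, also with both VC libraries below both PBS libraries, and was not called. Of the 19 genes of this group, 2 had both VC libraries above both PBS libraries and 4 had both below. The shares over all genes were 15.8% and 15.2%, so this separation alone says little about these enzymes.

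The histone H3 lysine 27 demethylases KDM6A (134 and 158 against 154 and 150, 0.06) and KDM6B (146 and 110 against 134 and 150, 0.16) overlapped between groups. So did EZH2, the methyltransferase of the same residue, at 212 and 232 against 218 and 200 (-0.09 ± 0.17). KDM4C, an H3 lysine 9 demethylase, had 99 and 86 against 82 and 64 (-0.34). The HIF prolyl hydroxylase EGLN1 had 124 and 99 against 121 and 118 (0.11), the collagen prolyl hydroxylase P4HA1 77 and 84 against 71 and 85 (-0.05), and the collagen lysyl hydroxylase PLOD1 139 and 86 against 134 in both (0.29). HIF target genes outside glycolysis had a median of -0.015 with 9 of 19 above 0. Among them BNIP3, a mitophagy receptor, had 42 and 46 against 64 and 59 (0.47) and VEGFA lay below 0, so the list held differences both ways.

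Transport and recycling of ascorbate did not shift as a set, with a median of -0.035 over 10 genes and 4 of them above 0. SLC23A2, the sodium-dependent ascorbate transporter SVCT2, had 248 and 212 with PBS and 237 and 242 with VC (0.06 ± 0.123). The glucose transporters that carry oxidised ascorbate were SLC2A1 (GLUT1) at 79 and 78 against 89 and 78 (0.08) and SLC2A3 (GLUT3) at 324 and 313 against 286 and 326 (-0.06). GSTO1, which can reduce dehydroascorbate, had 112 and 108 against 98 and 112 (-0.07). All 4 overlapped between groups. CYB5R3, which regenerates ascorbate from its radical, had 184 and 188 against 224 and 212 (0.23 ± 0.101). On DZNep SLC2A3 had 183 and 198 against 280 and 296 (0.59, limma adjusted p = 0.0386).

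Histone methyltransferases and acetyltransferases held some of the smaller p values among chromatin genes. KMT5B, an H4 lysine 20 methyltransferase, had 62 and 58 with PBS and 88 and 86 with VC (0.53 ± 0.14), SETD1A, an H3 lysine 4 methyltransferase, 172 and 145 against 206 in both VC libraries (0.38 ± 0.122), and EHMT1, an H3 lysine 9 methyltransferase, 262 and 234 against 299 and 333 (0.35). EP300, a histone acetyltransferase, had 342 and 392 against 463 and 482 (0.37 ± 0.107). These 4 were higher in both VC libraries, at a limma adjusted p of 0.954. Such separation upward held for 7 of 34 histone lysine methyltransferases and 5 of 28 deacetylases and acetyltransferases, against 15.8% of all genes. In each group 3 were separated downward (15.2% of all genes). An unadjusted limma p under 0.05 in the higher direction was found for 4 and 3 members, against 2.62% of all genes. The histone lysine methyltransferases as a group had a median of -0.008, with 16 of 34 above 0. Their library medians were -0.004 and -0.077 with PBS and 0.006 and 0.1 with VC, a shift of 0.094 that was smaller than the VC gap of 0.095, and they overlapped after removal of the GC trend. The deacetylases and acetyltransferases had a median of 0.062, with 18 of 28 above 0. Splicing factors of the SR and hnRNP families had a median of 0.039, with 36 of 55 above 0, and the kinase CLK1, which phosphorylates SR proteins, had 104 and 80 against 132 and 130 (0.52 ± 0.141).

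The machinery of growth was near 0. The 82 cytosolic ribosomal proteins had a median of -0.011 and library medians between -0.003 and 0.009. RPL22 stood at 4797 in both PBS libraries and 3652 in both VC libraries (-0.39) and RPSA at 980 and 872 against 815 and 773 (-0.22). These were the only 2 of the 82 with an unadjusted limma p under 0.05, and 2.24% of all genes were lower at that p. RPL22 lies where the scale is coarse, with 30 genes above it in each PBS library and 50 in each VC library. Both genes have near-identical pseudogenes, so reads may be split. The 72 mitochondrial ribosomal proteins had a median of 0.045 with 43 above 0, against 50.7% of all genes. Their library medians were -0.034 and -0.016 with PBS and 0.02 and 0.024 with VC. Both VC libraries stood above both PBS libraries for 19 of them, against 15.8% of all genes, with MRPL55 at 34 and 44 against 72 and 52 (0.65). On DZNep their median was -0.094, in the other direction. The 38 aminoacyl-tRNA synthetases, cytosolic and mitochondrial, had a median of -0.039. EIF4B, a cofactor of the eIF4A helicase, stood at 3648 in 3 libraries and at 1826 in VC library 2 (-0.50 ± 0.231); without VC library 1 it was the single gene past the threshold (limma adjusted p = 0.0264, range over the alternatives 0.0264 to 1).

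Genes of DNA replication had a median of 0.033 and those of mitosis -0.026, with overlapping library medians in both. MKI67, the proliferation marker, held 2460 and 2726 in both groups. Single genes of the cell cycle lay lower, such as the S-phase genes PCNA, the replication clamp, at 528 and 637 with PBS against 506 and 463 with VC (-0.26), and TK1, a thymidine kinase, at 144 and 105 against 95 and 82 (-0.47). The mitotic kinase AURKB had 98 and 112 against 88 and 71 (-0.40), and BIRC5 (survivin), its partner in the chromosomal passenger complex, 196 and 214 against 176 and 169 (-0.25). In these 4 genes both VC libraries lay below both PBS libraries. Of the 53 genes of DNA replication 8 were separated in this way downward and 8 upward. Of the 66 genes of mitosis 13 were separated downward and 8 upward. The shares over all genes were 15.2% downward and 15.8% upward, so these single genes do not show a lower cell cycle set. BCL2, the anti-apoptotic protein, had 320 and 272 against 223 and 176 (-0.57 ± 0.166), and on DZNep 187 and 196 against 130 and 96 (-0.77, limma adjusted p = 0.0698). BMF, a pro-apoptotic member of the same family, was also lower, at 137 and 148 against 110 and 104 (-0.41), and the BCL2 family and caspases as a list had a median of 0.045 with 19 of 31 above 0. CDKN1A was not analysed here.

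The cofilin, profilin and actin group, to which CFL1 belongs, had a median of 0.006 with 31 of 55 above 0, so CFL1 stood apart from its group. VASP, which extends actin filaments, had 252 and 263 with PBS and 364 and 312 with VC (0.39 ± 0.113), and FLNA, an actin cross-linker, 1904 and 1749 against 2170 in both VC libraries (0.25 ± 0.0737). Large families lay close to 0 as a whole. The 299 zinc finger genes had a median of 0.011 and the 149 solute carriers -0.003, with library medians within 0.03 of 0.

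The group medians were set beside the same medians on DZNep. Of 63 groups with a median other than 0, 35 had the same sign on DZNep, and of the 19 groups whose shift exceeded both gaps, 12 did. The NRF2 list (0.177 and 0.201) and the ATF4 list (-0.106 and -0.492) kept their direction, and the immediate early genes (-0.152 and 0.107) did not. Group medians were not tested, so none of these differences is called.

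**Figure D5:**
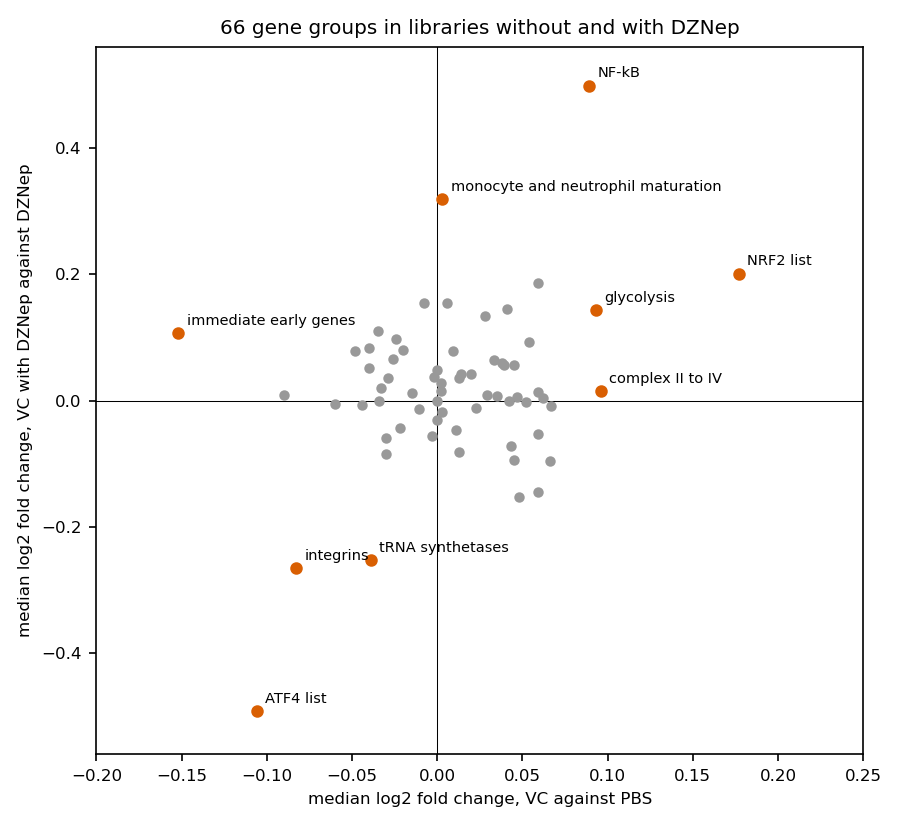
Median log2 fold change of each of 66 gene groups for VC against PBS (horizontal axis) and for VC with DZNep against DZNep (vertical axis), from separate sets of 4 libraries. The vertical axis spans a wider range; the NRF2 list lies at 0.177 and 0.201, the ATF4 list at -0.106 and -0.492 and the NF-kB genes at 0.089 and 0.499.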

How the data were processed

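RNA was extracted with Trizol and sequenced from TruSeq libraries, per the labels' protocols. Tools listed in the submitters' processing notes are DESeq 1.18.1, HTSeq 0.6.0, HISAT2 2.0.4 and SAMtools 1.3.1, with the genome builds hg38 and GRCh38. The deposited values were handled as a score (whole numbers already normalized by the authors), because all 8 libraries hold the same 511 distinct values in the same numbers; any shift common to most genes is removed by that step, and counting error cannot be given. The table's control columns were taken as PBS.

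Of 9543 genes, all matched to GENCODE 29, the 9513 with a mean of at least 10 were tested with limma 3.58.1 (R 4.3.3) on log2 of the value plus a pseudocount of 1: 1 mean per group over 8 libraries, an intensity trend, two-sided, with Benjamini-Hochberg adjustment (4 residual and 6.46 prior degrees of freedom). An exact permutation test of 2 against 2 libraries cannot go below p = 0.333.

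The contrast, the 71 gene lists and name families, and the rule for named genes (10 smallest p in each direction, up to 4 per group, 24 fixed genes of which 22 were measured) were chosen with earlier results of these data known. The NRF2 and iron members outside that rule were named after their values were seen. The values of 1 NRF2 list gene are not reported here. Promoters are from RefSeq, and 14 gene names stored as dates were restored by identifier.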

Additional observations from a re-analysis of the deposited data

How the results depend on the processing

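The count of genes past the threshold was 0 in 13 of 16 alternatives and 1 after median-of-ratios scaling (TFRC, 0.79), after removal of the GC trend (TFRC, 0.79) and without VC replicate 1 (EIF4B, -1.0). With each library left out in turn it ranged from 0 to 1, and over all alternatives the count at an unadjusted limma p under 0.05 ranged from 285 to 706. With the replicate number as a block it was 0 (493 unadjusted). Deviations of same-numbered libraries correlated between -0.047 and 0.091, so no clear trace shared by number was seen. Whether same-numbered libraries were handled together cannot be told from these values. Of 1626 gene values recomputed, 18 changed sign. Their ranges with each library left out in turn were -0.05 to 1.21 for NQO1, -0.12 to 0.15 for SLC7A11, -0.36 to 0.11 for TET3, -0.06 to 0.18 for KDM6A, -0.04 to 0.36 for KDM6B, -0.05 to 0.27 for EGLN1, -0.18 to 0.08 for P4HA1, -0.05 to 0.63 for PLOD1, -0.05 to 0.18 for SLC23A2, -0.01 to 0.18 for SLC2A1, -0.15 to 0.03 for SLC2A3, -0.16 to 0.03 for GSTO1, -0.11 to 0.31 for MPO and -0.17 to 0.5 for ITGAM. The cause of these changes was not tested. Of 66 group medians, 22 kept their sign in every alternative, among them 15 of the 19 whose shift exceeded both gaps (17 after removal of the GC trend). With 2 libraries per group and an unknown depth, differences near the median SE of 0.168 were not detectable. Much larger ones also went uncalled in the main fit, such as 0.80 for TFRC and 0.78 for LYZ. The count of 0 genes therefore sets no narrow limit on the size of single differences.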
